A study of Mus musculus with 16 samples.

Results

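KDM6A, also called UTX, removes methyl groups from lysine 27 of histone H3. The comparison described here set mouse embryonic stem cells that overexpressed KDM6A without an intrinsically disordered region (KDM6A del-cIDR) against cells that overexpressed full-length KDM6A (KDM6A FL). It covers 4 of the 16 libraries of the series, chosen by their sample labels alone: 2 of KDM6A del-cIDR and 2 of KDM6A FL. The remaining 12 libraries carried full-length or deleted KDM4A, KDM4B or KDM6B in the same design and gave the spread between replicates and the tests of difference. The cells in every group were E14TG2a, a male mouse embryonic stem cell line, grown in serum with LIF at 1000 U per ml, the MEK inhibitor PD0325901 at 1 µM and the GSK3 inhibitor CHIR99021 at 3 µM. Every group carried a construct, so no group without one entered the comparison. The labels write the deletion as del-cIDR or del-IDR and do not give the removed residues, the species of the construct, the promoter that drives it, or whether cells were pooled or clonal. The question was which RNAs on chromatin change when the disordered region is missing.

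KDM6A is a subunit of the MLL3 and MLL4 COMPASS complexes, which place H3K4 methylation at enhancers. By removing H3K27 methylation it opposes Polycomb repressive complex 2, which writes that mark over silent developmental genes. An intrinsically disordered region has no stable fold, and such a region of KDM6A is known to let the protein gather in condensates. Chromatin-associated RNA is the RNA that stays with the chromatin fraction after cells are broken up. It is rich in nascent transcripts, introns and nuclear noncoding RNAs, so its levels reflect RNA present on chromatin rather than mature cytoplasmic message.

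The 4 libraries held 42953407 and 49835987 reads over genes in KDM6A del-cIDR, against 41712736 and 32744671 in KDM6A FL, within the range of 32739117 to 54890756 over the whole series. The log2 levels of replicate libraries correlated at 0.985 in del-cIDR and 0.983 in FL across genes, which are not independent replicates. Embryonic stem cell identity was checked on 12 defining markers, and each was detected in the 4 libraries. Their summed level was 2574 and 2442 CPM in del-cIDR, against 2436 and 2354 CPM in FL. Levels are given as CPM, the usual depth-scaled read count, with TMM library sizes. Changes are log2 fold changes of del-cIDR over FL with their standard error, from 1 edgeR quasi-likelihood fit across all genes and all 16 libraries. A gene "rose" or "fell" where its Benjamini-Hochberg adjusted p was under 0.05. Nothing in the labels ties the libraries of a group to separate cultures. A p-value here sets a difference against library-to-library spread, which may be technical. For a single value, 2 libraries against 2 cannot give an exact permutation p below 0.333.

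The targeted gene checked the labels. Kdm6a (ENSMUSG00000037369, chromosome X, 18028814 to 18146175, GRCm39) stood at 435 and 415 CPM in del-cIDR, against 441 and 425 CPM in FL, while the 12 libraries with other constructs held 95.7 to 156 CPM with a median of 109.7 CPM. The 4 KDM6A libraries were thus above every other library, and the del-cIDR and FL libraries overlapped (log2 -0.026 ± 0.04, adjusted p = 0.766). Counts per gene do not tell reads of the construct from reads of the endogenous gene, and they do not show the deletion itself. Uty, the Y-linked relative of Kdm6a, rose (32.5 and 38.9 CPM in del-cIDR, against 27.6 and 29.0 CPM in FL; 0.34 ± 0.08, adjusted p = 0.0031), but not without del-cIDR replicate 2 (adjusted p = 0.178) or without FL replicate 1 (adjusted p = 0.0616). Kdm4b, which acts on methylated H3K9, fell (77.9 and 74.9 CPM in del-cIDR, against 95.5 and 88.6 CPM in FL; -0.27 ± 0.07, adjusted p = 0.0045), but not without del-cIDR replicate 2 (adjusted p = 0.0608) or without FL replicate 1 (adjusted p = 0.0739). Kdm4a fell as well (177 and 165 CPM in del-cIDR, against 193 and 189.9 CPM in FL; -0.17 ± 0.04, adjusted p = 0.0059), but not without the same libraries (adjusted p = 0.166 and 0.0623). In all, 1 of 7 KDM6 and KDM4 genes rose and 2 fell (42.9%), at a median level of 84.2 CPM. Of all genes at 10 to 100 CPM 32.4% changed. With ERCC scaling 0 of the 7 rose and 4 fell. Without del-cIDR replicate 2 or FL replicate 1, 0 rose and 0 fell. Kdm6b, the closest H3K27 demethylase, did not pass at 77.5 and 69.6 CPM in del-cIDR, against 70.1 and 69.1 CPM in FL, with a log2 value of 0.079 ± 0.06 that turned to -0.14 with ERCC scaling.

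Many genes changed by small steps. Of 31057 genes tested, 5265 passed the threshold, with 2578 rises (8.30% of genes tested) and 2687 falls (8.65%). The median size of these changes was 0.35 on the log2 scale, or 1.28-fold. Larger steps were more often falls: 353 genes rose and 839 fell by at least 1.5-fold, and 89 rose and 308 fell by at least 2-fold. The del-cIDR and FL libraries did not overlap for 53.6% of the genes tested. Most genes named below were chosen by p, size of change or lack of overlap. That their groups do not overlap is thus a description only. The share that passed followed the level: 2.13% of genes under 1 CPM, 12.3% at 1 to 10 CPM, 32.4% at 10 to 100 CPM and 48.7% at 100 CPM or more. Among 17290 protein-coding genes 2102 rose and 2328 fell, among 1971 lincRNA genes 63 rose and 79 fell, and among 297 snoRNA genes 0 rose and 2 fell. Directions are relative to the median gene. ERCC spike-in reads made up 0.806% and 0.800% of reads in del-cIDR, against 0.691% and 0.725% in FL, and scaling by them moved the median of all genes by -0.21. With that scaling 443 genes rose and 7140 fell. Without FL replicate 1 the count of changed genes was 3484.

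**Figure D1:**
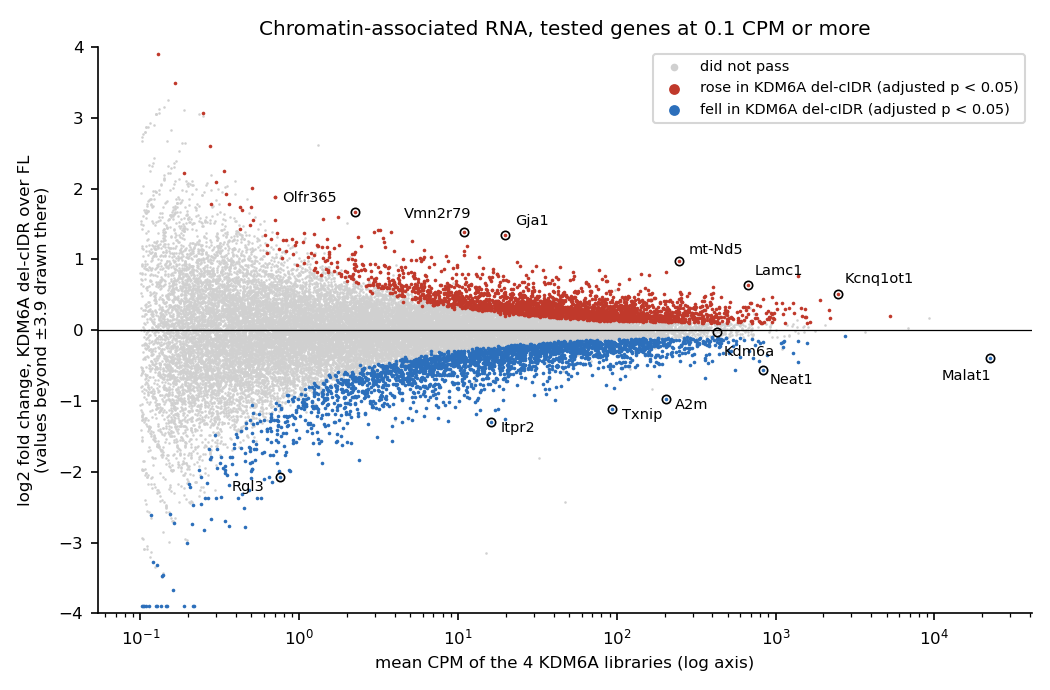
Log2 fold change of KDM6A del-cIDR over FL (vertical axis) against the mean CPM of the 4 KDM6A libraries (horizontal log axis) for each tested gene at 0.1 CPM or more. Red points rose, blue points fell and grey points did not pass. The 2578 rises and 2687 falls lie on both sides of 0, with Gja1 and mt-Nd5 high, Itpr2, Txnip and A2m low, and Kdm6a near 0.

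Chromosome 6 stood apart from the other chromosomes. Of its 1630 tested genes 324 fell (19.9%) and 34 rose (2.09%), against 8.03% and 8.65% of the 29427 genes elsewhere. Its median log2 change was -0.18, while the medians of the 19 other chromosomes, leaving out Y and the mitochondrial genome, lay between -0.02 and 0.04. On these 19 chromosomes 6.05% to 9.97% of genes fell. Among its 550 genes at 10 CPM or more, 420 had a log2 value below 0 and the median was 0.901-fold. The shift ran along its whole length, since each of 11 blocks of 50 neighbouring genes had a median below 0, from -0.19 to -0.10. Chromosome 6 took 4.89% and 4.91% of nuclear gene reads in del-cIDR, against 5.50% and 5.48% in FL. Repeat copies outside genes had a median of -0.05 on chromosome 6 and of 0.05 to 0.18 on the other autosomes and X. DNA content was not measured.

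Each library was also set against the mean of all 16. The median deviation of chromosome 6 genes minus that of the other autosomes was -0.095 and -0.088 in KDM6A del-cIDR, against 0.101 and 0.095 in KDM6A FL. Replicates lay close together and the groups did not overlap. The measure varied over the series, from -0.171 and -0.165 in KDM6B del-cIDR, next to -0.152 and -0.128 in KDM6B FL, to 0.276 and 0.285 in KDM4B FL. Both KDM6A groups lay inside that range. KDM4B del-cIDR lay at -0.116 and -0.099. KDM4A del-cIDR lay at 0.022 and 0.010, against 0.103 and 0.106 in KDM4A FL. The del-cIDR libraries were thus below their FL libraries in KDM4A, KDM4B and KDM6B as well. Among chromosome 6 genes at 10 CPM or more, the median effect of the deletion was -0.15 in KDM6A, -0.38 in KDM4B, -0.03 in KDM6B and 0.00 in KDM4A. In KDM4A the medians of the other autosomes lay between 0.02 and 0.20. The largest falls on chromosome 6 went far past the shift of the chromosome. A2m (ENSMUSG00000030111, chromosome 6, 121612335 to 121656186), an alpha-2-macroglobulin that binds proteases, stood at 139 and 135 CPM in del-cIDR, against 271 and 266 CPM in FL (-0.97 ± 0.04, adjusted p = 4.1e-21). Itpr2, a calcium channel of the endoplasmic reticulum, stood at 10.1 and 8.52 CPM in del-cIDR, against 22.5 and 23.0 CPM in FL (-1.29 ± 0.09, adjusted p = 4.4e-13). Genes on chromosome 6 are marked as such where they are named below.

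**Figure D2:**
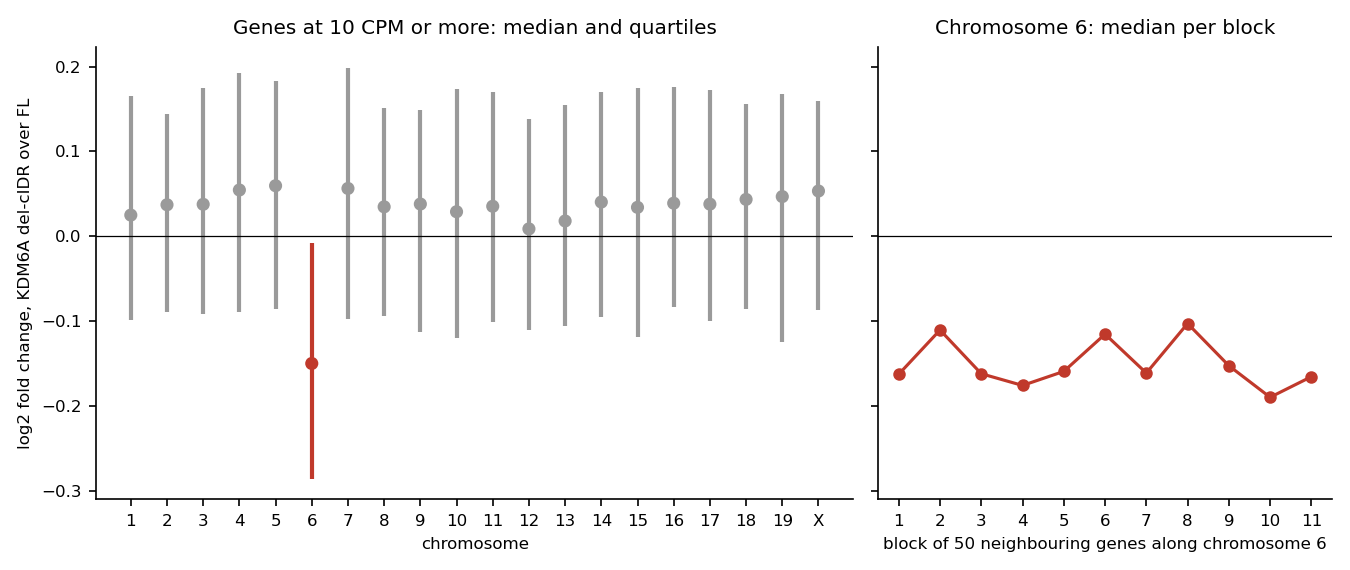
Left: median (points) and quartiles (lines) of the log2 fold change of KDM6A del-cIDR over FL for genes at 10 CPM or more, by chromosome. Right: medians of 11 successive blocks of 50 such genes along chromosome 6. The median of chromosome 6 sits below 0 and those of the other autosomes and X above it, and each of its blocks is below 0.

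**Figure D3:**
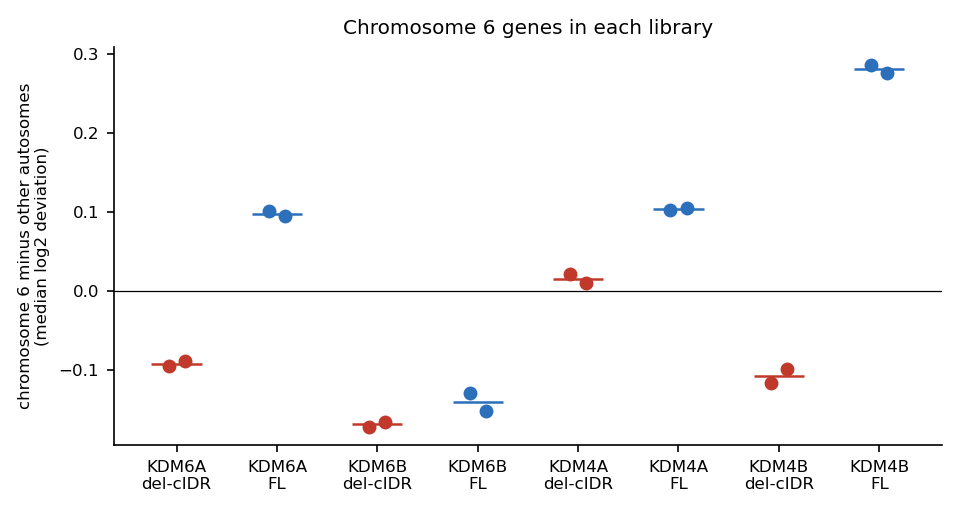
Median log2 deviation of chromosome 6 genes minus that of other autosomal genes (vertical axis) in each library (points), by group, with a line at the mean of each group of 2. KDM6A del-cIDR lies at -0.095 and -0.088 and KDM6A FL at 0.101 and 0.095, between the low KDM6B groups and the high KDM4B FL group. KDM4B del-cIDR (-0.116 and -0.099) lies below KDM4B FL (0.285 and 0.276) by a wider gap. In KDM4A and KDM6B the del-cIDR libraries also lie below the FL libraries.

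Many genes of the hypoxia response and glycolysis fell. These are targets of the HIF transcription factors, which bind the core letters ACGTG or GCGTG and switch cells to glucose use when oxygen is short. Of 36 tested members 17 fell and 1 rose, with a median of -0.22 beside 0.00 over all genes tested. Of all genes 8.65% fell, and 32.4% of those at 10 to 100 CPM changed in either direction, while 18 of the 36 members, whose median level was 42.975 CPM, did so. Of the 5 members on chromosome 6, 2 fell. Pdk1, the kinase that keeps pyruvate out of mitochondria, had 21.5 and 20.6 CPM in del-cIDR, against 40.8 and 38.4 CPM in FL (-0.91 ± 0.06, adjusted p = 8.7e-14). Gpi1, a glycolytic isomerase, had 149 and 139 CPM in del-cIDR, against 226 and 224 CPM in FL (-0.65 ± 0.04, adjusted p = 4.2e-15). Pfkp, the platelet form of phosphofructokinase, had 454 and 450.1 CPM in del-cIDR, against 657 and 673 CPM in FL (-0.56 ± 0.03, adjusted p = 2.1e-16). The groups were far apart in all 3, with replicates close together. Vegfa, the angiogenic growth factor, had 81.3 and 75.8 CPM in del-cIDR, against 114 and 109.8 CPM in FL (-0.51 ± 0.04, adjusted p = 2.1e-11). Bnip3, a mitophagy receptor chosen after its values were seen, had 13.4 and 14.3 CPM in del-cIDR, against 26.7 and 22.4 CPM in FL (-0.83 ± 0.09, adjusted p = 3.8e-09). Not every glycolytic gene fell: Pkm, the pyruvate kinase and the single rise, chosen after its values were seen, had 385 and 365 CPM in del-cIDR, against 332 and 337 CPM in FL (log2 0.16 ± 0.04, or -0.051 with ERCC scaling). When replicate number was added to the fit, 5 members rose and 17 fell. With ERCC scaling 0 rose and 26 fell, and with the libraries left out in turn 15 to 17 fell, and 3 rose without del-cIDR replicate 2 and 2 without FL replicate 1. The effects differed from those of the other demethylases: Pdk1 differed from the mean effect of KDM4A, KDM4B and KDM6B by -1.146 ± 0.07, adjusted p = 5.0e-16, Gpi1 by -1.16 ± 0.05, adjusted p = 1.2e-21, Pfkp by -0.70 ± 0.04, adjusted p = 2.0e-18 and Vegfa by -1.12 ± 0.05, adjusted p = 6.3e-20.

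The stretch of 250 bases before the start of the RefSeq transcript is shown for a pair of these genes, because the members share a known binding motif. Capitals mark ACGTG or GCGTG on either strand. The coordinates are GRCm38.p6, the build of the RefSeq table, and the strand is that of the gene. The windows are chr2:71872974-71873223 on the plus strand for Pdk1, where the most upstream of 2 listed starts was used, and chr7:138909507-138909756 on the minus strand for Bnip3.
Pdk1: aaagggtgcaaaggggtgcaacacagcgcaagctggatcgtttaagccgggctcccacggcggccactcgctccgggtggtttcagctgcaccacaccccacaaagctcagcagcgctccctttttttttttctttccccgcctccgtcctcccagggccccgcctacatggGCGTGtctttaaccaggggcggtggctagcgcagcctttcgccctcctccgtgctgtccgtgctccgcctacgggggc
Bnip3: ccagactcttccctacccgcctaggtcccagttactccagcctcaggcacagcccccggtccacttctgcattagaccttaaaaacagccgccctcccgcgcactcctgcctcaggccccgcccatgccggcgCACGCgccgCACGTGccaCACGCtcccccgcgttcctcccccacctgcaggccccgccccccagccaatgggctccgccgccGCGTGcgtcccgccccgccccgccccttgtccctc
Pdk1 held 1 match, 78 bases before the start. Bnip3 held 5, of which 2 overlap on opposite strands in CACGTG. A window was found for 30 tested members of the list, and 28 of them (93.3%) held ACGTG or GCGTG on either strand. Among members that fell it was 14 of 15, against 11226 of 27025 genes with a window (41.5%). The list was drawn up around HIF targets, so these shares may reflect how it was drawn up. The share was 93.3% in members that fell as in all tested members, so it does not set those that fell apart. The motif is short and common, and a match is a description of the letters, not evidence of binding in these cells.

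Genes of the amino acid and unfolded protein responses moved both ways. ATF4 induces amino acid and tRNA-charging genes under stress, while the chaperones of the endoplasmic reticulum answer to ATF6 and XBP1. Of 32 tested members 7 rose and 13 fell, at a median of -0.14. The share that changed was 62.5% at a median level of 43.1 CPM, beside 32.4% of all genes at 10 to 100 CPM. Chac1, an enzyme that degrades glutathione, had 10.1 and 12.6 CPM in del-cIDR, against 25.1 and 24.1 CPM in FL (-1.11 ± 0.09, adjusted p = 2.5e-12). Sars, a seryl-tRNA synthetase, had 65.2 and 65.0 CPM in del-cIDR, against 91.1 and 86.3 CPM in FL (-0.45 ± 0.05, adjusted p = 5.8e-09). In both genes the FL libraries were higher and the groups did not overlap. Other genes rose. Hspa5, the main chaperone of the endoplasmic reticulum, had 486 and 470.1 CPM in del-cIDR, against 329.9 and 333 CPM in FL (0.53 ± 0.03, adjusted p = 8.9e-15). Hyou1, its nucleotide exchange partner, had 241 and 223 CPM in del-cIDR, against 166 and 161 CPM in FL (0.51 ± 0.05, adjusted p = 1.4e-10). Pdia3, a disulfide isomerase of the same compartment and among the largest rises at 20 CPM or more, had 174 and 184 CPM in del-cIDR, against 101 and 105 CPM in FL (0.80 ± 0.05, adjusted p = 6.4e-12). With ERCC scaling 4 rose and 20 fell, and Hspa5, Hyou1 and Pdia3 were still higher in del-cIDR (0.31, 0.29 and 0.58). Each differed from the mean effect of the other demethylases, Chac1 by -1.32 ± 0.10, adjusted p = 1.0e-13, Sars by -0.73 ± 0.06, adjusted p = 1.8e-13, Hspa5 by 0.16 ± 0.04, adjusted p = 6.9e-04 and Hyou1 by 0.52 ± 0.05, adjusted p = 2.7e-10.

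The stretches upstream of Chac1 (chr2:119350992-119351241, plus strand) and Hspa5 (chr2:34771840-34772089, plus strand), again from RefSeq on GRCm38.p6, are shown since the pair moved in opposite directions. Capitals mark TGATGNAA, the core of the ATF4 composite element, in Chac1, with N for any base, and the endoplasmic reticulum stress element of chaperone genes, CCAAT and CCACG with 9 bases between them, in Hspa5. Both strands were searched.
Chac1: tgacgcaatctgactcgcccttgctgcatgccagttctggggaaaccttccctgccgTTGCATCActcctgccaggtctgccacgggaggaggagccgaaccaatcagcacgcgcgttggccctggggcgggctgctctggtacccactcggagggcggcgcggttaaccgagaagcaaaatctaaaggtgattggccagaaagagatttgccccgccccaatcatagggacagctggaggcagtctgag
Hspa5: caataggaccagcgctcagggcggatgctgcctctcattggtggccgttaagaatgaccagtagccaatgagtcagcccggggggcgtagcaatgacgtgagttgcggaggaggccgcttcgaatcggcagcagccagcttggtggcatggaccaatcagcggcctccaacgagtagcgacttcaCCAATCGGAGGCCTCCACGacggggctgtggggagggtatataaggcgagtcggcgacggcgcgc
The Chac1 match lay on the minus strand, 193 bases before the start, and the Hspa5 match 65 bases before it. TGATGNAA was found in 8 of 28 tested members with a window, in 6 of 12 that fell and 0 of 5 that rose, against 3.91% of 27025 genes. The stress element was found in 2 of the 28, against 0.130% of genes. The list joins ATF4 targets with chaperones of the endoplasmic reticulum, so these shares may reflect how it was drawn up. The groups that fell and rose are small, and a match describes the letters, not binding in these cells.

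Other stress lists were mixed. Changes reached 56.5% of heat-shock genes, 61.3% of p53 targets and 40% of cholesterol synthesis genes. Their median levels were 51.3, 41.6 and 20.3 CPM, and 32.4% of all genes at 10 to 100 CPM changed. Of 23 heat-shock genes 8 rose and 5 fell, and with ERCC scaling 2 rose and 9 fell. Hspd1, the chaperonin of the mitochondrial matrix, had 224 and 231 CPM in del-cIDR, against 171 and 169 CPM in FL (0.42 ± 0.04, adjusted p = 2.2e-10). Hsp90ab1, the constitutive cytosolic HSP90, had 1543 and 1372 CPM in del-cIDR, against 1137 and 1097 CPM in FL (0.38 ± 0.04, adjusted p = 4.6e-06). Among 31 p53 targets 12 rose and 7 fell. Trp73, a p53 relative, had 26.6 and 23.2 CPM in del-cIDR, against 16.8 and 18.02 CPM in FL (0.52 ± 0.09, adjusted p = 8.9e-05). With ERCC scaling the p53 count was turned round, since 1 rose and 13 fell. Cholesterol synthesis genes fell in 8 of 25 cases and rose in 2, with a median of -0.12, and with ERCC scaling 0 rose and 16 fell. Msmo1, which removes sterol methyl groups, had 52.4 and 51.7 CPM in del-cIDR, against 69.0 and 66.3 CPM in FL (-0.38 ± 0.05, adjusted p = 2.9e-07). Hmgcs1, the synthase ahead of HMG-CoA reductase, had 19.04 and 21.1 CPM in del-cIDR, against 28.2 and 26.9 CPM in FL (-0.46 ± 0.08, adjusted p = 2.8e-05). Without FL replicate 1, 3 cholesterol genes, 2 p53 targets and 1 heat-shock gene fell. Without del-cIDR replicate 2 these counts were 5, 1 and 2, and 2 heat-shock genes fell without del-cIDR replicate 1 or FL replicate 2.

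**Figure D4:**
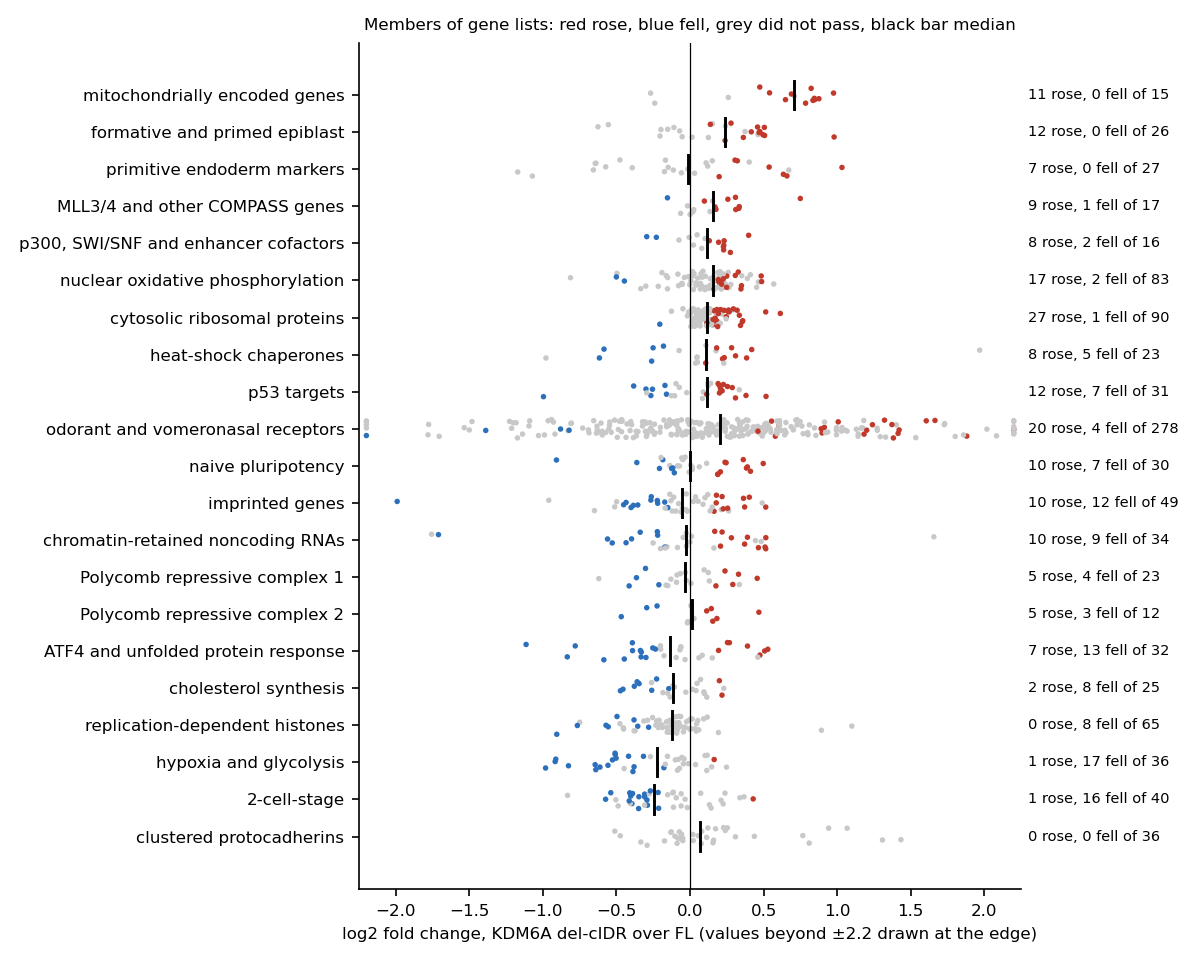
Log2 fold change of KDM6A del-cIDR over FL for the tested members of 21 gene lists (points, red rose, blue fell, grey did not pass), with the list median as a black bar and the counts at the right. Mitochondrially encoded genes lie mostly to the right of 0, hypoxia and 2-cell-stage genes mostly to the left, and clustered protocadherins have 0 rises and 0 falls.

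RNA of the mitochondrial genome rose for most of its genes. Of 15 listed genes tested, 11 rose and 0 fell at a median of 0.71, and the counts were the same with ERCC scaling. The share that changed was 73.3% at a median level of 34.3 CPM, beside 32.4% of all genes at 10 to 100 CPM. Of all 21 tested genes on the mitochondrial genome 11 rose (52.4%) and 0 fell. mt-Nd5, a subunit of complex I, had 322 and 336 CPM in del-cIDR, against 166 and 169 CPM in FL (0.98 ± 0.05, adjusted p = 1.2e-13). mt-Cytb, of complex III, had 104 and 109.7 CPM in del-cIDR, against 66.2 and 66.3 CPM in FL (0.69 ± 0.05, adjusted p = 9.2e-14). mt-Co1, of complex IV, had 404 and 418 CPM in del-cIDR, against 302 and 290.0 CPM in FL (0.47 ± 0.03, adjusted p = 2.8e-13). The groups did not overlap in these genes. The ribosomal RNAs mt-Rnr2 (873 and 1103 CPM in del-cIDR, against 1096 and 1284 CPM in FL) and mt-Rnr1 (147 and 198 CPM in del-cIDR, against 186 and 221 CPM in FL) did not pass. The share of gene reads on the mitochondrial genome overlapped, at 0.227% and 0.265% in del-cIDR and 0.214% and 0.240% in FL. The median effect on this list was also above 0 in KDM4A (0.55), KDM4B (0.41) and KDM6B (0.42). mt-Nd5 rose more in KDM6A than in their mean (difference 0.51 ± 0.06, adjusted p = 3.9e-08), and mt-Co1 less (difference -0.14 ± 0.04, adjusted p = 0.0039).

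Nuclear genes for oxidative phosphorylation and ribosomes leaned up by small steps with TMM scaling and down with ERCC scaling. The share that changed was not above that of other genes at their level. It was 22.9% of the respiratory genes, at a median level of 11.4 CPM, and 31.1% of the ribosomal genes, at 89.7 CPM. Of all genes at 10 to 100 CPM 32.4% changed. Of 83 nuclear respiratory genes 17 rose and 2 fell (median 0.16), and with ERCC scaling 0 rose and 9 fell. Ndufv3, a subunit of complex I, fell (17.3 and 15.7 CPM in del-cIDR, against 23.1 and 21.96 CPM in FL; -0.45 ± 0.08, adjusted p = 2.3e-05). Without FL replicate 2, 4 of these genes rose, without del-cIDR replicate 1, 10, and without del-cIDR replicate 2, 9, and 1 fell without del-cIDR replicate 1 or FL replicate 1. Of 90 cytosolic ribosomal protein genes 27 rose and 1 fell (median 0.11), and with ERCC scaling 0 rose and 17 fell. Rpl27a had 170.1 and 175 CPM in del-cIDR, against 135 and 137 CPM in FL (0.34 ± 0.04, adjusted p = 2.6e-08). The count of rises was 17 without FL replicate 2, and 0 fell without del-cIDR replicate 2 or FL replicate 1. Reads of these genes and of their processed pseudogene copies can be hard to place, since reads with several matches were left uncounted.

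Naive pluripotency genes moved in both directions. Of 30 tested members 10 rose and 7 fell at a median of 0.00, and with ERCC scaling 2 rose and 15 fell. Their median level was 101.6 CPM and 56.7% of them changed, beside 48.7% of all genes at 100 CPM or more. Pecam1, a surface protein of naive cells, had 159.7 and 158 CPM in del-cIDR, against 122 and 117 CPM in FL (0.41 ± 0.05, adjusted p = 1.4e-08). Sall4, a zinc finger factor of the pluripotency network, had 179 and 166 CPM in del-cIDR, against 138 and 126 CPM in FL (0.38 ± 0.05, adjusted p = 5.7e-07). Pou5f1, which encodes OCT4, had 71.9 and 66.4 CPM in del-cIDR, against 52.9 and 54.7 CPM in FL (0.36 ± 0.06, adjusted p = 7.4e-06). Nanog, on chromosome 6, had 105 and 106 CPM in del-cIDR, against 117 and 123.4 CPM in FL (-0.19 ± 0.04, adjusted p = 0.0014), but did not pass without FL replicate 2 (adjusted p = 0.067). Tdgf1, a Nodal co-receptor, fell (69.5 and 69.6 CPM in del-cIDR, against 89.4 and 90.2 CPM in FL; -0.37 ± 0.05, adjusted p = 7.5e-07). Sox2 rose (94.2 and 97.9 CPM in del-cIDR, against 83.7 and 85.0 CPM in FL; 0.19 ± 0.05, adjusted p = 0.0038), but its value was -0.027 with ERCC scaling, and it did not pass without del-cIDR replicate 2 (adjusted p = 0.0569) or without FL replicate 1 (adjusted p = 0.055). Esrrb, Klf2, Klf4, Tfcp2l1, Fgf4 and Dppa5a were named for their role after their values were seen, and did not pass, with values from -0.072 ± 0.03 (Tfcp2l1) to 0.11 ± 0.07 (Dppa5a). Without del-cIDR replicate 1, 6 naive genes rose and 4 fell, and 3 fell without del-cIDR replicate 2 or either FL replicate. With RLE size factors 4 fell.

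Genes of the formative and primed epiblast, the states that follow naive pluripotency, rose where they passed. The list had a median level of 11.2 CPM and 46.2% of it changed, beside 32.4% of all genes at 10 to 100 CPM. Of 26 tested members 12 rose and 0 fell (median 0.24), 10 or 11 rose when 1 library was left out, and with ERCC scaling 5 rose and 2 fell. Lin28a, an RNA-binding protein that blocks let-7 maturation, had 11.96 and 11.1 CPM in del-cIDR, against 5.98 and 5.68 CPM in FL (0.98 ± 0.11, adjusted p = 2.2e-08). Dnmt3b, a de novo DNA methyltransferase, had 60.7 and 56.3 CPM in del-cIDR, against 45.2 and 42.4 CPM in FL (0.42 ± 0.06, adjusted p = 4.2e-07). Nodal, the TGF-beta ligand of the epiblast, had 30.1 and 26.9 CPM in del-cIDR, against 19.5 and 20.6 CPM in FL (0.51 ± 0.08, adjusted p = 1.3e-05). Sox4, an HMG-box factor, had 37.7 and 36.0 CPM in del-cIDR, against 26.5 and 26.7 CPM in FL (0.47 ± 0.07, adjusted p = 2.6e-06). In these 4 genes, the members with the smallest p, both del-cIDR libraries were above both FL libraries, which that choice made likely. Lin28a differed from the mean effect of the other demethylases by 0.75 ± 0.13, adjusted p = 9.1e-06, Nodal by 0.47 ± 0.09, adjusted p = 9.6e-05 and Sox4 by 0.31 ± 0.08, adjusted p = 0.0019. For Dnmt3b the difference did not pass (0.13 ± 0.06, adjusted p = 0.12). The median effect on the whole list was also above 0 in KDM6B, at 0.33 beside 0.24 in KDM6A. It was 0.04 in KDM4A and -0.18 in KDM4B.

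Signalling lists showed a few clear members. Changes reached 42.1% of LIF and STAT3 genes and 28.1% of epiblast ligands and receptors, beside 32.4% of all genes at 10 to 100 CPM. They reached 31.6% of WNT targets, 25% of ERK genes and 23.8% of Nodal and BMP targets, beside 12.3% of all genes at 1 to 10 CPM. Each list is set beside all genes at its median level. LIF and STAT3 pathway genes rose in 2 and fell in 6 of 19 cases, and with ERCC scaling 1 rose and 10 fell. With RLE size factors 3 of them fell. With libraries left out in turn, 1 (without del-cIDR replicate 2), 2 (without either FL replicate) or 3 (without del-cIDR replicate 1) of them fell, and 1 rose without FL replicate 2. Jak2, the kinase below the LIF receptor, had 24.0 and 26.8 CPM in del-cIDR, against 33.1 and 31.2 CPM in FL (-0.34 ± 0.06, adjusted p = 1.3e-04). Of 19 WNT targets 4 rose and 2 fell, and with ERCC scaling 2 rose and 4 fell, and 1 fell without del-cIDR replicate 1. Notum, a secreted WNT deacylase, had 18.6 and 18.6 CPM in del-cIDR, against 10.4 and 9.80 CPM in FL (0.88 ± 0.11, adjusted p = 2.5e-07). Its antisense neighbour Notumos passed in the same direction, and the strandless counts do not tell the pair apart. Ccnd1, cyclin D1, had 26.6 and 25.4 CPM in del-cIDR, against 17.6 and 17.02 CPM in FL (0.59 ± 0.08, adjusted p = 5.7e-07). ERK feedback and immediate early genes split evenly, 4 rises and 4 falls of 32 (with ERCC scaling 1 rose and 12 fell), with 2 falls without FL replicate 1 and 2 of each without FL replicate 2, among them the serum response factor Srf (18.1 and 15.03 CPM in del-cIDR, against 12.03 and 10.996 CPM in FL; 0.52 ± 0.11, adjusted p = 8.0e-04). Of 21 Nodal and BMP targets 3 rose and 2 fell, and with ERCC scaling 3 rose and 4 fell. Id3, an inhibitor of helix-loop-helix factors, had 3.04 and 3.07 CPM in del-cIDR, against 1.26 and 1.60 CPM in FL (1.099 ± 0.30, adjusted p = 0.0075), and without FL replicate 1 it did not pass (edgeR adjusted p = 0.121). Of 32 epiblast ligands and receptors 8 rose and 1 fell, with ERCC scaling 0 rose and 10 fell, and without del-cIDR replicate 1 or FL replicate 2, 4 rose. The fall was lost without del-cIDR replicate 2 or FL replicate 1, and 2 fell without del-cIDR replicate 1.

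Markers of other cell types were checked for the same libraries. In bulk libraries, fewer cells of a type and less RNA per cell cannot be told apart. Of 27 primitive endoderm markers 7 rose and 0 fell at a median of -0.015, and 0 were at 0 reads in the 4 libraries. Their summed level was 2264 and 2149 CPM in del-cIDR, against 1678 and 1644 CPM in FL. The share of them that changed was 25.9% at a median level of 2.08 CPM, beside 12.3% of all genes at 1 to 10 CPM. Lamc1, the laminin gamma-1 chain, had 839 and 793 CPM in del-cIDR, against 535 and 516 CPM in FL (0.63 ± 0.04, adjusted p = 2.1e-16). Sparc, a matrix glycoprotein, had 80.7 and 81.4 CPM in del-cIDR, against 50.1 and 52.7 CPM in FL (0.66 ± 0.05, adjusted p = 1.7e-12). Lrp2, the endocytic receptor megalin, had 301 and 290.0 CPM in del-cIDR, against 205 and 202 CPM in FL (0.54 ± 0.04, adjusted p = 2.7e-13). Rhox5, a homeobox factor, had 9.81 and 8.22 CPM in del-cIDR, against 3.75 and 5.11 CPM in FL (1.03 ± 0.14, adjusted p = 4.3e-07). Pdgfra, the growth factor receptor that marks this lineage, named after its values were seen, did not pass, at 3.69 and 2.57 CPM in del-cIDR, against 3.86 and 4.34 CPM in FL. Among these markers 4 rose and 4 fell with ERCC scaling.

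Other marker lists held calls in both directions. Of 18 trophectoderm markers 1 rose and 1 fell, of 17 mesendoderm markers 1 rose and 1 fell, and of 27 neural markers 3 rose and 3 fell. These calls came to 11.1% of the trophectoderm, 11.8% of the mesendoderm and 22.2% of the neural markers, at median levels of 1.89, 0.689 and 1.33 CPM, while 2.13% of all genes under 1 CPM and 12.3% at 1 to 10 CPM passed. Without del-cIDR replicate 1 or FL replicate 2, 0 mesendoderm markers rose, without FL replicate 1, 2 fell, and without FL replicate 2, 1 neural marker fell. With ERCC scaling 0 rose and 6 fell among trophectoderm, 0 rose and 4 fell among mesendoderm and 1 rose and 7 fell among neural markers. Tead4, the trophectoderm regulator on chromosome 6, had 41.6 and 36.7 CPM in del-cIDR, against 50.7 and 50.4 CPM in FL (-0.37 ± 0.07, adjusted p = 6.0e-05). Stmn2, a neuronal tubulin binder, had 35.6 and 35.9 CPM in del-cIDR, against 23.9 and 24.4 CPM in FL (0.57 ± 0.07, adjusted p = 1.3e-07). Of 12 fibroblast markers 1 rose and 3 fell (33.3%), at a median level of 1.70 CPM, beside 12.3% of all genes at 1 to 10 CPM. With ERCC scaling 1 rose and 5 fell, and 2 more listed had 0 reads in the 4 libraries. Pdgfrb, a receptor of mesenchymal cells, had 6.17 and 4.59 CPM in del-cIDR, against 10.4 and 11.8 CPM in FL (-1.05 ± 0.12, adjusted p = 1.5e-08). The summed trophectoderm level was 120.3 and 118 CPM in del-cIDR, against 131 and 129.8 CPM in FL. The summed fibroblast level was 2830.2 and 2639.8 CPM in del-cIDR, against 2965 and 2842 CPM in FL. The summed mesendoderm level was 48.4 and 44.7 CPM in del-cIDR, against 49.2 and 46.3 CPM in FL. The summed neural level was 237 and 233 CPM in del-cIDR, against 233 and 229 CPM in FL. The part of other cells in the results was not tested.

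Genes of the 2-cell stage, which a rare state of stem cell cultures switches on, fell in many cases. Of 40 tested members 16 fell and 1 rose at a median of -0.24, and with ERCC scaling 0 rose and 21 fell. At their median level of 13.6 CPM, 42.5% changed, beside 32.4% of all genes at 10 to 100 CPM. Zscan4a had 32.9 and 35.1 CPM in del-cIDR, against 47.4 and 42.5 CPM in FL (-0.40 ± 0.08, adjusted p = 1.8e-04), Zscan4f had 27.7 and 26.2 CPM in del-cIDR, against 37.1 and 33.8 CPM in FL (-0.40 ± 0.08, adjusted p = 2.4e-04) and the pseudogene Zscan4-ps3 had 20.1 and 20.96 CPM in del-cIDR, against 29.97 and 29.6 CPM in FL (-0.54 ± 0.08, adjusted p = 1.7e-06). Zscan4 proteins act at telomeres in 2-cell-like cells. Gm12794, a member of a family of 2-cell-stage genes, had 17.1 and 15.8 CPM in del-cIDR, against 24.5 and 24.6 CPM in FL (-0.57 ± 0.09, adjusted p = 4.0e-06). In each of the 4 both del-cIDR libraries were below both FL libraries. Reads that match several near-identical copies stayed uncounted, so the levels of the Zscan4 members are uncertain. Without FL replicate 1, 7 members fell, and without del-cIDR replicate 2, 9. Effects in the other demethylases varied: the effect on Zscan4a was -1.93 in KDM4A, -1.68 in KDM4B and 0.27 in KDM6B, and KDM6A differed from the mean of the 3 by 0.71 ± 0.09, adjusted p = 5.2e-08.

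Of 47 germline genes that DNA methylation keeps silent 10 fell and 3 rose, while their median was 0.047, and with ERCC scaling 0 rose and 17 fell. Their median level was 9.03 CPM and 27.7% of them changed, beside 12.3% of all genes at 1 to 10 CPM. Prdm9, which marks meiotic recombination sites, had 16.6 and 15.2 CPM in del-cIDR, against 21.6 and 22.3 CPM in FL (-0.47 ± 0.09, adjusted p = 8.7e-05). Tex15, a factor of meiosis and piRNA silencing, had 65.5 and 65.1 CPM in del-cIDR, against 80.2 and 79.0 CPM in FL (-0.29 ± 0.05, adjusted p = 6.5e-05). Hormad1, a protein of the meiotic chromosome axis, rose (36.3 and 38.4 CPM in del-cIDR, against 28.4 and 27.9 CPM in FL; 0.41 ± 0.07, adjusted p = 3.3e-05). Without del-cIDR replicate 1, 5 of the list fell, and without del-cIDR replicate 2, 1 rose.

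Among the partners of KDM6A, more COMPASS genes rose than fell with TMM scaling. Of 17 tested members 9 rose and 1 fell at a median of 0.15, but with ERCC scaling 1 rose and 5 fell. Their median level was 138 CPM and 58.8% of them changed, beside 48.7% of all genes at 100 CPM or more. Without del-cIDR replicate 2 or FL replicate 1, 0 fell. Setd1b, an H3K4 methyltransferase, had 53.1 and 51.3 CPM in del-cIDR, against 32.2 and 29.9 CPM in FL (0.75 ± 0.07, adjusted p = 7.6e-10). Kmt2b, another H3K4 methyltransferase, had 511 and 465 CPM in del-cIDR, against 399 and 377 CPM in FL (0.33 ± 0.04, adjusted p = 3.3e-07). Hcfc1, a scaffold shared by these complexes, had 314 and 312 CPM in del-cIDR, against 252 and 253 CPM in FL (0.31 ± 0.04, adjusted p = 7.9e-08). Ash2l, a core subunit, had 545 and 535 CPM in del-cIDR, against 458 and 446 CPM in FL (0.26 ± 0.03, adjusted p = 1.8e-07). Kmt2d and Kmt2c, the MLL4 and MLL3 enzymes that hold KDM6A, rose by 0.33 ± 0.04 and 0.097 ± 0.03 and were named for that role after their values were seen. Kmt2c did not pass without del-cIDR replicate 1 or without either FL replicate, with edgeR adjusted p up to 0.126. With ERCC scaling Kmt2d stood at 0.12 and Kmt2c at -0.12. Setd1b differed from the mean effect of the other demethylases by 1.30 ± 0.09, adjusted p = 2.8e-15.

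Enhancer cofactors and Polycomb genes gave mixed counts. Changes reached 62.5% of the enhancer cofactors and 66.7% of the genes of Polycomb repressive complex 2. Their median levels were 269 and 144 CPM, and 48.7% of all genes at 100 CPM or more changed. For Polycomb repressive complex 1 it was 39.1% at 63.4 CPM, beside 32.4% of all genes at 10 to 100 CPM. Of 16 p300, SWI/SNF and Mediator genes 8 rose and 2 fell, and with ERCC scaling 1 rose and 6 fell. Arid1a, a subunit of the BAF remodeller, had 456 and 418 CPM in del-cIDR, against 335 and 329 CPM in FL (0.40 ± 0.04, adjusted p = 2.0e-09). Crebbp, an acetyltransferase of H3K27, had 291 and 298 CPM in del-cIDR, against 248 and 239 CPM in FL (0.27 ± 0.04, adjusted p = 8.0e-07). Without FL replicate 2, 5 of these genes rose. Of 12 genes of Polycomb repressive complex 2, 5 rose and 3 fell, and with ERCC scaling 1 rose and 5 fell. The H3K27 methyltransferase Ezh1 fell (55.7 and 55.7 CPM in del-cIDR, against 79.6 and 74.5 CPM in FL; -0.47 ± 0.05, adjusted p = 1.5e-09), and its relative Ezh2, on chromosome 6, fell (-0.22 ± 0.05). Mtf2, which guides the complex to CpG islands, had 585 and 629 CPM in del-cIDR, against 746 and 742 CPM in FL (-0.29 ± 0.04, adjusted p = 1.8e-07). Epop, a modulator of the complex, rose (37.2 and 36.9 CPM in del-cIDR, against 26.2 and 27.3 CPM in FL; 0.47 ± 0.07, adjusted p = 1.4e-06). Jarid2, a further partner, rose by 0.18 ± 0.03, but its value was -0.033 with ERCC scaling. Of 23 genes of Polycomb repressive complex 1, 5 rose and 4 fell, 2 of the falls being on chromosome 6, and with ERCC scaling 1 rose and 12 fell. Kdm2b, which binds unmethylated CpG islands, had 207 and 193 CPM in del-cIDR, against 149 and 142 CPM in FL (0.46 ± 0.05, adjusted p = 1.8e-09). Without del-cIDR replicate 2 or either FL replicate, 3 genes of Polycomb repressive complex 2 rose. Without del-cIDR replicate 1, 3 genes of Polycomb repressive complex 1 rose and 2 fell, and 2 fell without FL replicate 1.

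Developmental genes bound by Polycomb rose and fell in similar numbers. Of 74 tested developmental regulators 7 rose and 5 fell, beside 8.30% of all genes that rose and 8.65% that fell. Their median level was 0.932 CPM and 16.2% of them changed, against 2.13% of all genes under 1 CPM. All 5 members at 10 CPM or more changed. Meis2, a HOX cofactor and the member with the smallest p, had 151 and 147 CPM in del-cIDR, against 90.8 and 89.8 CPM in FL (0.72 ± 0.05, adjusted p = 9.2e-14). It differed from the mean effect of the other demethylases by 1.099 ± 0.06, adjusted p = 4.7e-18. Without del-cIDR replicate 2, 2 of the regulators fell, and without FL replicate 1, 3. Tbx20, a heart T-box factor, fell (8.14 and 7.95 CPM in del-cIDR, against 13.2 and 13.4 CPM in FL; -0.72 ± 0.10, adjusted p = 6.9e-07). Sox21, a neural HMG-box factor, rose (34.7 and 33.0 CPM in del-cIDR, against 25.5 and 25.3 CPM in FL; 0.41 ± 0.08, adjusted p = 1.5e-04). Otx1, a forebrain homeobox factor, fell (1.68 and 1.44 CPM in del-cIDR, against 2.91 and 3.06 CPM in FL; -0.94 ± 0.19, adjusted p = 3.2e-04). Of 36 Hox genes, which set position along the body axis, 1 rose and 2 fell, and 11 of them are on chromosome 6. Their median level was 0.724 CPM and 8.33% of them changed. Hoxb9 had 31.4 and 31.1 CPM in del-cIDR, against 19.6 and 19.4 CPM in FL (0.68 ± 0.10, adjusted p = 1.3e-06). Hoxc8 fell (-0.95 ± 0.25) but did not pass without del-cIDR replicate 1 (adjusted p = 0.136). Hoxa2, on chromosome 6, fell (-1.28 ± 0.42) but did not pass without del-cIDR replicate 1 (adjusted p = 0.329), FL replicate 1 (adjusted p = 0.0686) or FL replicate 2 (adjusted p = 0.166). With ERCC scaling 1 rose and 7 fell of the Hox genes and 1 rose and 9 fell of the other regulators.

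Other chromatin regulators changed in small numbers. Changes reached 30% of the H3K9 and 25% of the m6A genes, beside 48.7% of all genes at 100 CPM or more. They reached 40% of the DNA methylation and 30% of the RNA decay genes, beside 32.4% of all genes at 10 to 100 CPM. For the replication-dependent histones it was 12.3%, as for all genes at 1 to 10 CPM. Each list is set beside all genes at its median level. Of 30 genes of H3K9 methylation and heterochromatin 7 rose and 2 fell, and 4 rose without del-cIDR replicate 1. Without that library or FL replicate 1, 1 of them fell. Trim28, the corepressor that silences endogenous retroviruses, had 657 and 651 CPM in del-cIDR, against 549.5 and 539 CPM in FL (0.27 ± 0.03, adjusted p = 1.6e-07). Suv39h1, an H3K9 methyltransferase, had 58.8 and 60.1 CPM in del-cIDR, against 43.6 and 44.2 CPM in FL (0.44 ± 0.06, adjusted p = 1.8e-06). Of 15 genes of DNA methylation and demethylation 4 rose and 2 fell, both falls being on chromosome 6, with 1 fall without del-cIDR replicate 2 or FL replicate 1. Tet1, a dioxygenase of 5-methylcytosine, had 2368 and 2309 CPM in del-cIDR, against 2082 and 2049 CPM in FL (log2 0.18 ± 0.03, or -0.036 with ERCC scaling). Of 20 genes of the m6A machinery 4 rose and 1 fell, led by the reader Igf2bp1 (536 and 519 CPM in del-cIDR, against 384 and 381 CPM in FL; 0.46 ± 0.04, adjusted p = 1.4e-12). Of 20 genes of nuclear RNA decay 4 rose and 2 fell, or 1 without FL replicate 2. The fall among m6A genes was lost without del-cIDR replicate 2 or FL replicate 1. With ERCC scaling these 4 lists leaned down: 1 rose and 12 fell, 1 rose and 6 fell, 2 rose and 8 fell, and 0 rose and 10 fell, in the order of the lists. Of 65 replication-dependent histone genes 0 rose and 8 fell, and with ERCC scaling 0 rose and 26 fell. Of these genes 3 fell without del-cIDR replicate 1, 5 without FL replicate 1 and 4 without FL replicate 2. Hist1h2bb, an H2B gene, had 18.6 and 17.5 CPM in del-cIDR, against 23.6 and 23.4 CPM in FL (-0.38 ± 0.08, adjusted p = 3.6e-04).

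Long noncoding RNAs that stay in the nucleus included some of the most abundant changes. Of 34 listed RNAs 10 rose and 9 fell, and with ERCC scaling 5 rose and 17 fell. The share that changed was 55.9% at a median level of 73.0 CPM, beside 32.4% of all genes at 10 to 100 CPM. Neat1, the scaffold of paraspeckles, had 659 and 678 CPM in del-cIDR, against 976 and 997 CPM in FL (-0.56 ± 0.03, adjusted p = 2.6e-16). Malat1, the RNA of nuclear speckles and a neighbour of Neat1, had 18884 and 19462 CPM in del-cIDR, against 25053 and 25456 CPM in FL (log2 -0.40 ± 0.03, adjusted p = 9.5e-10). Kcnq1ot1, which silences an imprinted domain on chromosome 7, had 2846 and 2999 CPM in del-cIDR, against 2048 and 2045 CPM in FL (0.51 ± 0.03, adjusted p = 1.2e-15). Tsix, the antisense partner of Xist, had 307 and 286 CPM in del-cIDR, against 213 and 202 CPM in FL (0.51 ± 0.05, adjusted p = 5.3e-11). Xist and Tsix overlap and strand was ignored. Reads on stretches of both genes stayed uncounted, and other reads went to the gene annotated there from either strand, so the value of Tsix is uncertain. In these RNAs the replicates lay close together and the groups did not overlap. Kcnq1ot1 differed from the mean effect of the other demethylases by 1.39 ± 0.04, adjusted p = 9.0e-28, with effects of -1.69 in KDM4A, -0.84 in KDM4B and -0.098 in KDM6B. Neat1 differed by 0.22 ± 0.04, adjusted p = 6.6e-06, with effects of -1.19 in KDM4A, -0.87 in KDM4B and -0.27 in KDM6B. Of 49 imprinted genes 10 rose and 12 fell, with 4 of the falls on chromosome 6. Their median level was 35.3 CPM and 44.9% of them changed, beside 32.4% of all genes at 10 to 100 CPM. Peg3, a paternally expressed zinc finger gene, had 94.8 and 92.4 CPM in del-cIDR, against 119 and 125 CPM in FL (-0.39 ± 0.04, adjusted p = 1.3e-09). Plagl1, another paternally expressed factor, had 69.8 and 68.3 CPM in del-cIDR, against 52.5 and 54.9 CPM in FL (0.36 ± 0.05, adjusted p = 7.4e-07). Cdkn1c, a cyclin-dependent kinase inhibitor in the Kcnq1ot1 domain, was among the largest falls (0.246 and 0.346 CPM in del-cIDR, against 1.24 and 1.14 CPM in FL; -1.99 ± 0.33, adjusted p = 1.9e-05). With ERCC scaling 1 rose and 20 fell of the imprinted genes, and without FL replicate 1, 6 rose.

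Among the largest changes at 20 CPM or more were Gja1, Tenm4 and Folr1, which rose, and Txnip, Kif21b and Calca, which fell. Gja1 (ENSMUSG00000050953, chromosome 10, 56253426 to 56278609), the gap junction protein connexin 43, had 28.5 and 28.3 CPM in del-cIDR, against 11.9 and 10.5 CPM in FL (1.34 ± 0.10, adjusted p = 1.4e-12). Tenm4, a teneurin adhesion protein, had 272 and 253 CPM in del-cIDR, against 151 and 146 CPM in FL (0.82 ± 0.04, adjusted p = 7.2e-17). Folr1, a folate receptor, had 39.4 and 40.8 CPM in del-cIDR, against 21.9 and 21.1 CPM in FL (0.90 ± 0.08, adjusted p = 2.3e-11). Txnip (ENSMUSG00000038393, chromosome 3, 96465273 to 96469199), which binds thioredoxin and limits glucose uptake, had 55.2 and 63.1 CPM in del-cIDR, against 126 and 129 CPM in FL (-1.11 ± 0.04, adjusted p = 9.8e-21). Kif21b, a kinesin, had 28.5 and 26.5 CPM in del-cIDR, against 54.1 and 54.6 CPM in FL (-0.98 ± 0.06, adjusted p = 2.6e-16). Calca, the calcitonin gene, had 11.7 and 9.92 CPM in del-cIDR, against 25.7 and 21.5 CPM in FL (-1.13 ± 0.09, adjusted p = 6.2e-12). The groups were far apart in each, and a lack of overlap was a condition for naming these genes. The difference from the mean effect of the other demethylases was 1.93 ± 0.12, adjusted p = 3.6e-16 for Gja1, 1.34 ± 0.05, adjusted p = 3.7e-22 for Tenm4, 1.53 ± 0.09, adjusted p = 1.0e-16 for Folr1 and -2.16 ± 0.05, adjusted p = 2.8e-28 for Txnip. Of 72 collagens, laminins and integrins 9 rose and 11 fell, and with ERCC scaling 3 rose and 26 fell. The share that changed was 27.8% at a median level of 6.72 CPM, beside 12.3% of all genes at 1 to 10 CPM. Lamc1, Col9a2 (log2 0.53 ± 0.07) and the integrin subunits Itgb5 (0.47 ± 0.07) and Itgb1 (0.35 ± 0.05) had the smallest p and rose, though Itgb1 did not pass with ERCC scaling (edgeR adjusted p = 0.15). The falls with the smallest p, named after their values were seen, were Itga3 (-0.42 ± 0.06) and Col20a1 (-0.42 ± 0.06). Of 23 adhesion and polarity genes 5 rose and 0 fell (21.7%), at a median level of 7.23 CPM, beside 12.3% of all genes at 1 to 10 CPM. With ERCC scaling 2 rose and 2 fell, and Cdh3, P-cadherin, had 41.4 and 35.9 CPM in del-cIDR, against 27.4 and 25.02 CPM in FL (0.56 ± 0.07, adjusted p = 1.2e-07 with TMM scaling).

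**Figure D5:**
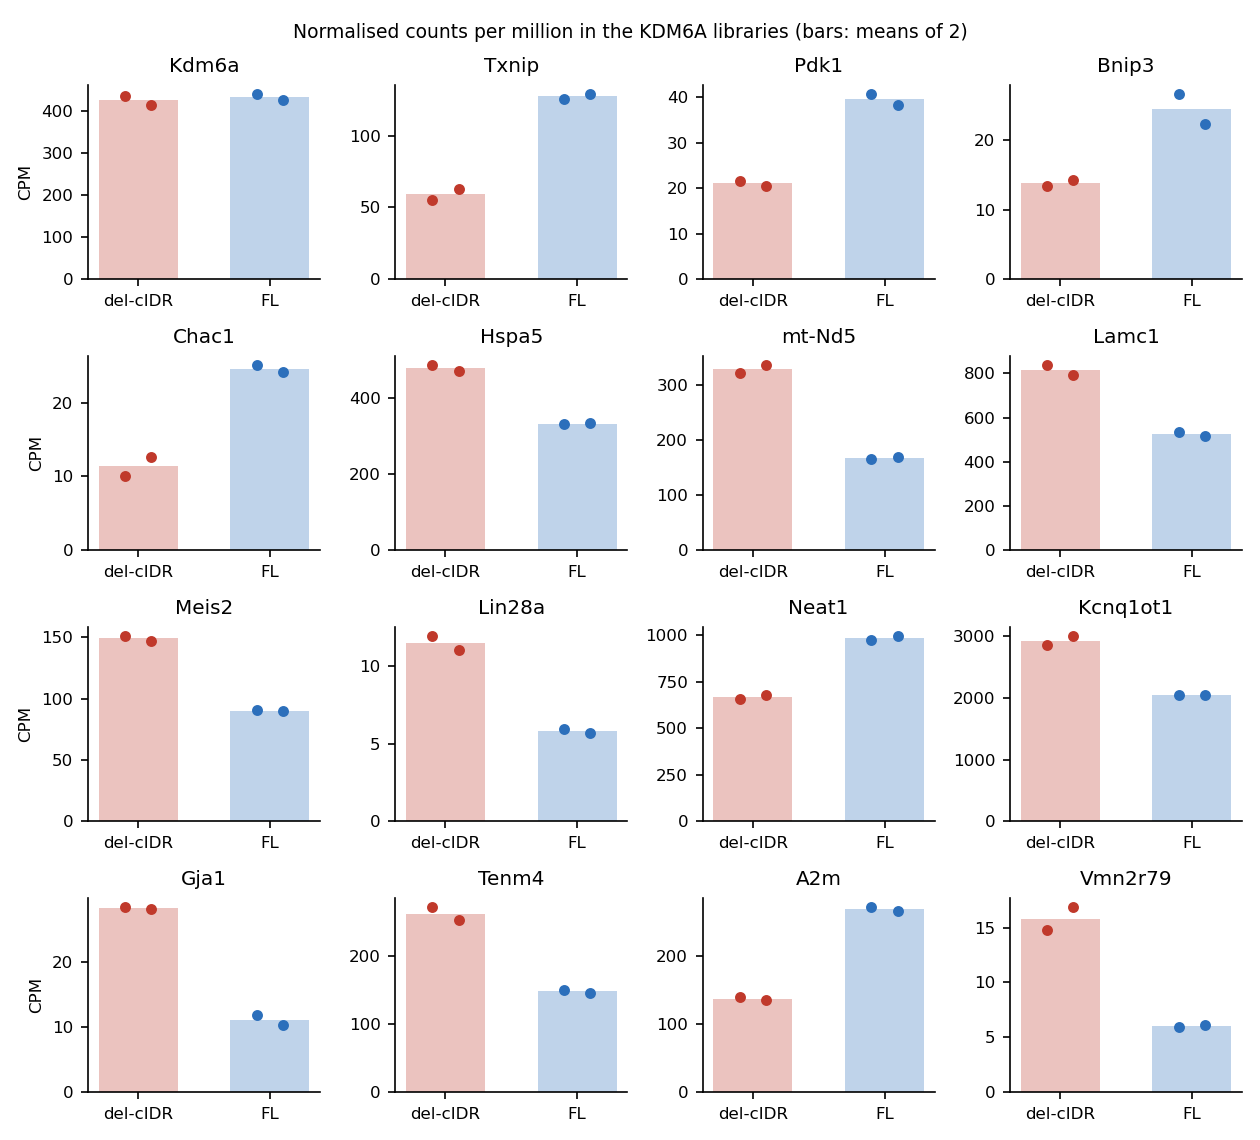
CPM of 16 named genes in each KDM6A library (points), with bars at the mean of the 2 libraries of a group and each vertical axis starting at 0. The groups overlap for Kdm6a. They do not overlap for the other panels, where Txnip, Pdk1, Bnip3, Chac1, Neat1 and A2m are lower in del-cIDR and the remaining genes are higher.

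Odorant and vomeronasal receptor genes serve smell and have no known role in stem cells. They made up 8 of the 12 largest rises at 1 CPM or more among genes whose groups did not overlap and that have no gene-model name. Gene-model names are Gm numbers, Rik, clone and accession names. Of 1735 in the table, 868 had 0 reads in the 4 libraries and 278 could be tested. Of these 20 rose and 4 fell, and with ERCC scaling 16 rose and 10 fell, beside 8.30% of all genes that rose and 8.65% that fell. The tested members had a median level of 0.416 CPM, and 8.63% of them changed, against 2.13% of all genes under 1 CPM. Vmn2r79 had 14.7 and 16.9 CPM in del-cIDR, against 5.96 and 6.17 CPM in FL (1.38 ± 0.13, adjusted p = 5.2e-10). Olfr836 had 54.0 and 60.2 CPM in del-cIDR, against 30.8 and 30.8 CPM in FL (0.89 ± 0.09, adjusted p = 6.9e-09). Olfr365 had 3.58 and 3.22 CPM in del-cIDR, against 1.13 and 0.9997 CPM in FL (1.66 ± 0.23, adjusted p = 1.8e-06). In all 3 both del-cIDR libraries were above both FL libraries, which was a condition for naming them. Members of these families have near-identical copies, so their counts are uncertain. Without FL replicate 1, 13 rose and 0 fell. Among the largest falls at 1 CPM or more were Rgl3, a Ras-effector gene (0.313 and 0.269 CPM in del-cIDR, against 1.33 and 1.11 CPM in FL; -2.07 ± 0.32, adjusted p = 5.0e-06), Oprk1, the kappa opioid receptor (0.268 and 0.230 CPM in del-cIDR, against 1.26 and 0.828 CPM in FL; -2.07 ± 0.41, adjusted p = 2.1e-04), and Ctnna2, a neuronal catenin on chromosome 6 (0.268 and 0.422 CPM in del-cIDR, against 1.29 and 1.51 CPM in FL; -1.99 ± 0.42, adjusted p = 5.2e-04). Each had at most 1.51 CPM in any of the 4 libraries.

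Further lists were counted in the same way. Of 30 mitotic genes 11 rose and 6 fell, with the kinesin Kif23 down (209 and 215 CPM in del-cIDR, against 289.6 and 284 CPM in FL; -0.43 ± 0.04, adjusted p = 5.9e-12) and the spindle factor Tpx2 up (346 and 322 CPM in del-cIDR, against 274 and 264 CPM in FL; 0.31 ± 0.04, adjusted p = 1.5e-07), and with ERCC scaling 0 rose and 17 fell. At their median level of 160.5 CPM 56.7% changed, beside 48.7% of all genes at 100 CPM or more. Of 26 interferon-stimulated genes 2 rose and 2 fell (15.4%), at a median level of 2.67 CPM, beside 12.3% of all genes at 1 to 10 CPM. With ERCC scaling 2 rose and 8 fell. With libraries left out these counts were 1 rise without either del-cIDR replicate or FL replicate 1, and 1 fall without del-cIDR replicate 2 or FL replicate 2. Ifitm3, a membrane restriction factor, had 12.1 and 12.6 CPM in del-cIDR, against 6.88 and 7.34 CPM in FL (0.80 ± 0.10, adjusted p = 1.8e-07). Of 36 clustered protocadherins, which label neurons, 0 passed, with 5 falls under ERCC scaling. Of 10 small structured RNAs 0 passed. Of 7 X-linked genes with a Y partner 3 rose, Kdm5c, Usp9x and Ddx3x, but their values turned to -0.019, -0.063 and -0.071 with ERCC scaling. The 3 rises were 42.9% of the list at a median level of 227 CPM, beside 48.7% of all genes at 100 CPM or more. Without del-cIDR replicate 2, Usp9x (edgeR adjusted p = 0.0722) and Ddx3x (0.154) did not pass, nor did Ddx3x without FL replicate 1 (0.159). Of 8 Y-linked genes 2 rose and 2 fell (50%), at a median level of 2.00 CPM, beside 12.3% of all genes at 1 to 10 CPM. With ERCC scaling 0 rose and 3 fell. Leaving out any 1 of the 4 KDM6A libraries left 1 fall, and leaving out del-cIDR replicate 2 or FL replicate 1 left 1 rise. Of 16 genes of the retinoic acid response 2 rose and 1 fell, the fall being Stra8, a meiotic entry gene on chromosome 6 (6.08 and 6.18 CPM in del-cIDR, against 12.4 and 13.7 CPM in FL; -1.09 ± 0.12, adjusted p = 1.0e-08). The share of these 16 that changed was 18.8% at a median level of 3.26 CPM, beside 12.3% of all genes at 1 to 10 CPM.

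Transposable elements showed little change as families. Repeats took 48.1% and 48.8% of counted reads in del-cIDR and 47.6% and 47.8% in FL, a difference of 0.751 percentage points (exact permutation test, two-sided p = 0.333, the smallest that 2 against 2 libraries allow). Of 60 repeat families 0 were called (0.00%) by edgeR, 3 had an unadjusted p under 0.05, and 4 were called by DESeq2. With the library sizes of the genes 11 were called, 10 of them higher in del-cIDR. The 46 families with at least 1000 reads lay between -0.18 and 0.17 on the log2 scale. The LINE/L1 family stood at 0.00, with a standard error of 0.02. Single copies, scaled by the library sizes of the genes, changed rarely. Of 716086 tested copies 654 rose (0.0913%) and 255 fell (0.0356%), together 0.127%. With TMM factors taken over the copies 405 rose and 309 fell. With the library sizes of the genes, 215 of 108716 L1 copies rose and 46 fell, and 127 of 42094 ERVK copies rose and 39 fell. On that scale the median tested copy stood at 0.05, and the LINE/L1 and LTR/ERVK families at 0.06 and 0.10, so rises and falls are not counted around 0. Outside genes 251 of 117906 copies rose and 64 fell in this fit, and 281 rose and 90 fell when these copies were fitted alone. When libraries were left out in turn, 236 to 334 copies were called.

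Single copies with the largest changes lay on several chromosomes. An L1 copy of 575 bases at chr8:20008189-20008763 (GRCm39, minus strand) outside annotated genes had 0.626 and 1.59 CPM in del-cIDR, against 0.0451 and 0.114 CPM in FL (log2 3.82 ± 0.62, adjusted p = 3.0e-04). An ERV1 copy at chrX:102294442-102294533 had 1.27 and 1.92 CPM in del-cIDR, against 0.248 and 0.200 CPM in FL (2.81 ± 0.48, adjusted p = 6.6e-04). It lies in 4930519F16Rik, the first of 6 neighbouring X-linked genes that rose together. An ERVK copy at chr17:65528562-65529393 outside genes had 0.0447 and 0.211 CPM in del-cIDR, against 1.26 and 1.11 CPM in FL (-3.14 ± 0.51, adjusted p = 2.6e-04). A fall of a B2 copy on the Y chromosome rested on 1 library: it had 0.156 and 0.154 CPM in del-cIDR, against 0.203 CPM in FL replicate 1 and 3.14 CPM in FL replicate 2.

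The effect of the deletion differed between demethylases for many genes. For 6768 genes (21.8%) the KDM6A effect differed from that of KDM6B, the closest relative, with 3430 higher and 3338 lower. For 11904 genes (38.3%) it differed from the mean effect in KDM4A, KDM4B and KDM6B. Both differences contain the KDM6A libraries, so they are not independent of the changes above. Kdm6a itself had effects of -0.50 in KDM4A, -0.33 in KDM4B and -0.055 in KDM6B, and its KDM6A effect differed from their mean by 0.27 ± 0.05, adjusted p = 1.2e-05. Receptor genes led the positive differences among genes at 1 CPM or more whose groups did not overlap and that have no gene-model name. Olfr365 had effects of -6.56 in KDM4A, -5.14 in KDM4B and 1.203 in KDM6B, and differed from their mean by 5.16 ± 0.41, adjusted p = 6.6e-12. Among the negative differences, Irf8, an interferon regulatory factor of blood cells, fell in KDM6A (0.916 and 0.749 CPM in del-cIDR, against 2.302 and 2.23 CPM in FL; -1.45 ± 0.22, adjusted p = 4.8e-06) and had effects of 2.18 in KDM4A, 1.56 in KDM4B and 0.38 in KDM6B (difference -2.82 ± 0.25, adjusted p = 4.4e-12). Pax9, a skeletal regulator, had 0.671 and 0.346 CPM in del-cIDR, against 1.26 and 1.09 CPM in FL (-1.23 ± 0.33, adjusted p = 0.0074) and effects of 3.07 in KDM4A, 1.64 in KDM4B and 0.52 in KDM6B, but its fall did not pass without del-cIDR replicate 2 (adjusted p = 0.208) or without FL replicate 1 (adjusted p = 0.0842).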

How the data were processed

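The samples were chromatin-associated RNA-seq libraries of E14TG2a cells, ribosomal RNA having been depleted, per the labels' protocols. The deposited counts are whole reads per gene and per repeat copy, made by featureCounts 2.0.3, which kept reads with a mapping quality of 30 or more, per the file headers. Both mates of a pair were counted as reads, strand was ignored although the library kit marks it, and reads matching several places or features stayed uncounted. HISAT2 and GRCm39 are named in the submitters' processing notes. The gene table holds 56941 genes and 92 ERCC RNAs, and the labels do not say how ERCC RNAs were added. Symbols came from GENCODE M21 for 51948 genes by Ensembl ID, and coordinates from the deposited table.

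Groups came from the sample titles. Genes passed edgeR's count filter (minimum count 10) and entered 1 quasi-likelihood fit of 8 group means with TMM factors in edgeR 4.0.16 (R 4.3.3, limma 3.58.1), which leaves 8 residual degrees of freedom. P-values were adjusted by Benjamini-Hochberg over all genes. Repeat copies needed 5 reads in 2 libraries, and their fit used the library sizes of the genes. Repeat families were fitted like the genes, with TMM factors over the families, and DESeq2 1.42.0 was an alternative. The fitting script was tested on simulated data.

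The lists and members were chosen with earlier results of these data known. Named were the demethylase genes, the 12 largest rises and falls at 1 CPM and at 20 CPM or more whose groups did not overlap, up to 4 members per list by p, and the 8 largest differences from the other demethylases in each direction. The largest changes and differences were taken among genes without a gene-model name (Gm number, Rik, clone or accession name). The differences were held to the conditions of the changes at 1 CPM. Alternatives were other scalings, filters, tools, fits and libraries left out. Those about chromosome 6 were added after seeing the data.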

Additional observations from a re-analysis of the deposited data

Results flagged for a closer look

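The effect of the deletion in KDM6A differed from that in KDM6B for 6768 genes, and from the mean effect in KDM4A, KDM4B and KDM6B for 11904 genes, both by edgeR's quasi-likelihood test of the difference itself. The genes at the ends of the second comparison are given here with the difference of log2 effects, KDM6A minus the mean of the others. They are the ends among genes at 1 CPM or more whose groups did not overlap, gene-model names left out. Each passed the adjusted threshold.

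Receptor and immunoglobulin light chain genes stood at the high end. The difference was 5.96 for Olfr1129, 5.16 for Olfr365, 4.92 for Vmn2r78, 4.67 for Olfr1432, 4.19 for Olfr366 and 4.14 for Olfr873. It was 4.47 for Iglc3 and 4.28 for Iglc1. Against KDM6B alone, of these genes only Olfr1432 passed (4.75, edgeR adjusted p = 0.0483). The effect in KDM6B was 1.203 for Olfr365, 2.33 for Vmn2r78, 2.15 for Olfr366 and 1.59 for Olfr873, of which that of Olfr366 passed. In KDM4A and KDM4B the effects on these 4 genes lay between -9.32 and -2.95. Olfr1432 (1.32 and 1.42 CPM in del-cIDR, against 1.17 and 1.29 CPM in FL), Iglc3 (1.43 and 1.71 CPM in del-cIDR, against 1.33 and 0.914 CPM in FL), Iglc1 (3.13 and 3.22 CPM in del-cIDR, against 1.964 and 2.68 CPM in FL) and Olfr873 (1.30 and 1.25 CPM in del-cIDR, against 0.767 and 0.685 CPM in FL) did not pass within KDM6A. The effects on Iglc3 were -6.20 in KDM4A, -2.15 in KDM4B and -3.65 in KDM6B. These genes have near-identical copies, so their counts are uncertain.

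At the low end the difference was -3.41 for Oprk1, -3.24 for Rgl3, -3.06 for Rgcc, -3.02 for Adssl1, -3.02 for Rasl12, -2.97 for Pax9, -2.82 for Irf8 and -2.72 for Cpne7. Rgcc, a cell cycle regulator, had 0.559 and 0.480 CPM in del-cIDR, against 1.42 and 1.34 CPM in FL, and effects of 2.63 in KDM4A, 2.304 in KDM4B and 0.0046 in KDM6B. Cpne7, a copine, had 2.01 and 2.28 CPM in del-cIDR, against 5.01 and 6.06 CPM in FL, and effects of 1.82 in KDM4A, 0.97 in KDM4B and 1.31 in KDM6B.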

How the results depend on the processing

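Counts of changed genes stayed within 1.5 times of 5265 with RLE size factors (5313), ERCC scaling (7583), DESeq2 (5258), no filter (5240), a 1 CPM filter (5554), a fit of the 4 KDM6A libraries (4898) and genes outside chromosome 6 (4858). Asking for a 2-fold change left 397. ERCC scaling moved rises to 5.84% of changed genes, against 49.0% as reported, with 443 higher and 7140 lower. Leaving out 1 library gave 3484 to 3950 genes, with 62.3% to 68.0% of the reported calls kept and 0 turned. Without FL replicate 1 it was 3484. The differences from KDM6B numbered 5479 to 6058 and those from the mean of the others 9891 to 10456. List members changed numbered 355 to 381, against 470 as reported. The repeat share differed by 0.387 to 1.11 points, and the chromosome 6 shift stayed between -0.187 and -0.175.

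Of 60 repeat families 11 were called with gene library sizes, 4 with DESeq2 and 0 to 1 with a library left out. Repeat copies called numbered 714 with TMM factors over the copies (405 higher and 309 lower), 371 when copies outside genes were fitted alone, and 236 to 334 with a library left out.

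The labels give groups the same replicate numbers, but only 2 pairs exist and nothing says a number marks a shared culture. The deviations of same-numbered KDM6A libraries correlated at 0.144. Over all pairs of KDM4A, KDM4B and KDM6A groups the correlation was 0.103 to 0.172, and over pairs with a KDM6B group -0.0026 to 0.034. The replicate block gave 6055 changed genes, 7556 differences from KDM6B, 12512 from the mean of the others, 536 list members and 1594 repeat copies.

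With ERCC scaling the sign turned for Kdm6b (-0.14), Olfr1432 (-0.055), Jarid2 (-0.033), Sox2 (-0.027), Ccng1 (-0.024), Rplp2 (-0.023), Atp5b (-0.0047), Tet1 (-0.036), Tet2 (-0.082), Kdm5c (-0.019), Usp9x (-0.063), Ddx3x (-0.071), Fgfr1 (-0.0040), Epha4 (-0.038), Pkm (-0.051), Kmt2c (-0.12), Esrrb (-0.21) and Dppa5a (-0.0997), and 48 of 206 named calls were lost. With a library left out Kdm6a ranged from -0.055 to 0.00996 and turned without del-cIDR replicate 2 or FL replicate 1 (0.00012), and Snord17 ranged from -0.40 to 0.033 and turned without del-cIDR replicate 1. The cause was not tested. Under 1 CPM 2.13% of genes passed, against 48.7% at 100 CPM or more.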

Other observations

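Changed genes also lay side by side. A run was counted where at least 5 neighbouring tested genes changed in the same direction. On chromosome 13 (GRCm39, 55357595 to 55510596) the 6 genes Nsd1, Gm47816, Rab24, Prelid1, Mxd3 and Lman2 rose with a median log2 change of 0.51. Nsd1 encodes an H3K36 methyltransferase. On the X chromosome 6 neighbours that begin with 4930519F16Rik and Nap1l2 rose with a median of 0.69. On chromosome 11 Myadml2os, Notum, Notumos, Aspscr1 and Cenpx rose with a median of 0.86. On chromosome 7 the run held Trim28, Zbtb45, Chmp2a, Ube2m and Mzf1, at 0.34. The single run of falls lay on chromosome 6, with Vamp1, Tapbpl and Cd27 among its 5 genes, at -0.73. Several members of these runs overlap, and counts without strand do not tell overlapping genes apart.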
